A study of Mus musculus with 9 samples.

Results

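The Rab GTPase genes were taken from the deposited table of RAW264.7 cells as the rows whose Ensembl identifier is a protein-coding gene in GENCODE M21 with the symbol Rab, a number and at most 1 further letter. This rule found 55 genes among the 28137 rows. GENCODE M21 holds 59 such symbols, and the other 4 were not analysed here. RAW264.7 is a macrophage-like line of mouse monocytic leukemia cells. The RNA-seq data consist of 9 libraries, 3 each of cells given a negative control siRNA (NC), an siRNA against SFRP2 or an siRNA against RAB6A. By the labels, all 3 groups were transfected for 6 h with 60 nM siRNA in Lipofectamine 8000, kept 12 h in complete medium and then given 100 ng/ml lipopolysaccharide (LPS) for 24 h. The study's methods differ from the labels here. They give another transfection reagent, siRNA dose and time after transfection, and add interferon gamma to the LPS. Which applied to these libraries is not known. The library titles also carry the mark 6H without saying which step it refers to. No untransfected group and no group without LPS was analysed here. Nothing in the labels says that the libraries came from separate cultures, so the p-values measure the spread between these libraries, which may be technical.

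Rab proteins are small GTPases that give each membrane compartment its identity. In the GTP-bound form they recruit tethers and motors that move and fuse vesicles. Exchange factors (GEFs) load them with GTP, TBC-domain proteins (GAPs) switch them off, and a prenyl anchor added with the help of escort proteins holds them in the membrane. In macrophages, Rab5 and Rab7 act in turn on the maturing phagosome, and Golgi Rabs carry newly made cytokines and receptors towards the surface.

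Values are FPKM, that is, read numbers scaled by exon length and library size, so that levels can be compared between genes. The libraries held 32758729 to 47149258 reads, as recovered from the steps of the FPKM values. Macrophage markers were present in every library, with a summed level of 3921 to 4909 FPKM over 8 genes. Cd68 and Cd14 led this sum, and its members differed in direction with RAB6A siRNA. Mean levels in NC and with RAB6A siRNA were 872 and 214 FPKM for Lyz2, 73.6 and 27.0 for Csf1r, 66.6 and 39.9 for Fcgr1, and 1679 and 1943 for Cd14. Markers of T cells, B cells, epithelium, fibroblasts and endothelium summed to at most 2.54 FPKM per list. A list of 4 LPS response genes summed to 1439 to 1574 FPKM in NC and to 1111 to 1122 FPKM in the RAB6A siRNA libraries. Its members did not move together. Mean levels in NC and with RAB6A siRNA were 1050 and 659 FPKM for Tnf and 95.9 and 49.8 for Il6, but 340 and 392 for Nos2 and 15.0 and 17.4 for Il1b. The part of these macrophage and LPS response genes in the results below was not tested. In such bulk RNA, fewer cells with a transcript and less of it per cell cannot be told apart.

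Rab6a, the Golgi Rab that the RAB6A siRNA is labeled with, fell only slightly in those libraries. Rab6a (ENSMUSG00000030704) lies on the + strand of chromosome 7 at chr7:100607410-100641268 of GRCm38. Its level was 24.3, 27.3 and 25.5 FPKM in the 3 NC libraries, 26.6, 28.6 and 25.8 FPKM with SFRP2 siRNA, and 21.2, 20.7 and 20.4 FPKM with RAB6A siRNA. The RAB6A siRNA libraries were all below the other 6, and the NC and SFRP2 siRNA groups overlapped. The mean was 20.8 ± 0.445 FPKM with RAB6A siRNA (SD, n = 3) against 25.7 ± 1.48 in NC, a ratio of 0.808. On the scale of log2(FPKM + 0.1), Rab6a fell by 0.31 (SE 0.06, adjusted p = 0.0024, limma), and it differed by 0.07 (SE 0.06, adjusted p = 0.548) between SFRP2 siRNA and NC. When the FPKM values were corrected for GC content and gene length, the difference between RAB6A siRNA and NC was -0.09 and the adjusted p by limma 0.229.

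The fall of Rab6a was not among the larger differences of the family. Of the other 40 Rab genes tested in this comparison, 28 had a larger absolute log2 fold change and 15 fell further. Over the whole table, 9323 of 12711 other genes had a larger one. Of the exon bases of Rab6a, 19.0% overlap Mrpl48, a mitochondrial ribosome gene on the opposite strand, whose mean level was 2.05 FPKM in NC and 3.23 FPKM with RAB6A siRNA. Whether reads were assigned by strand is not given in the sources used here, so reads in the shared stretch cannot be told apart.

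Rab6b, the paralog of Rab6a that is known mainly from neurons, was barely detected. It had 8, 10 and 8 reads in the NC libraries, 20, 8 and 20 reads with SFRP2 siRNA, and 8, 45 and 32 reads with RAB6A siRNA. Its highest level was 0.236 FPKM. Rab6b stayed under the minimum mean level of 0.5 FPKM and was not tested. Sfrp2 itself had 2 reads in each NC library, 4, 4 and 2 reads with SFRP2 siRNA, and 4, 3 and 4 reads with RAB6A siRNA. These numbers are too low to check the labels of the SFRP2 siRNA group.

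**Figure D1:**
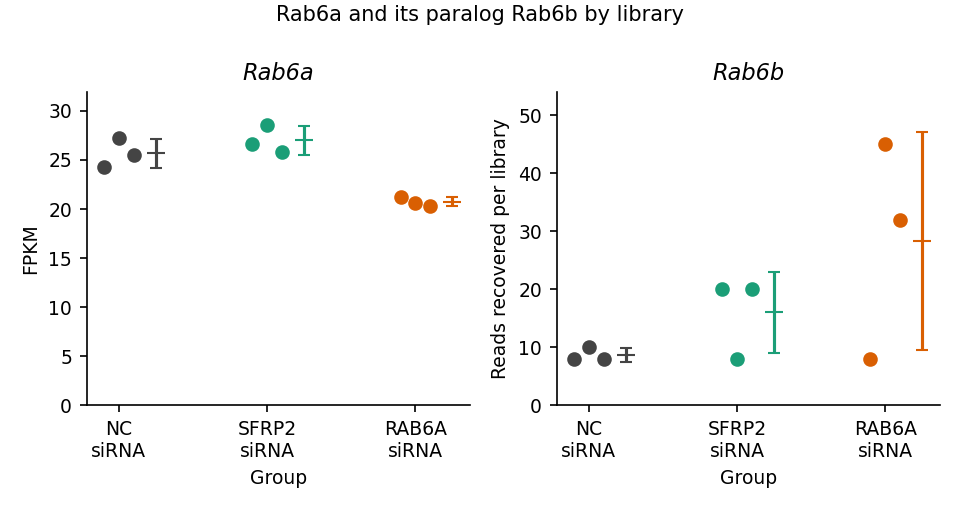
Left, Rab6a in FPKM; right, Rab6b in recovered reads, each point a library and the bar beside it the mean with SD of 3 libraries. The Rab6a values of the RAB6A siRNA group, 20.4 to 21.2 FPKM, lie below all others, while Rab6b reaches 45 reads at most.

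The start of the Rab6a promoter is shown because the libraries are defined by this gene, and those of Rab32 and Rab40c because they were among the Rab genes with the largest fall and the largest rise. All come from the RefSeq promoter windows on GRCm38.p6, written in the direction of the gene, and stop at the GENCODE M21 start of the gene, which lies before the RefSeq start, so that no transcribed bases are shown. For Rab6a this leaves out a further CCAAT box nearer the RefSeq start. The stretches are chr7:100607336-100607409 (+ strand) for Rab6a, chr10:10558266-10558457 (- strand) for Rab32 and chr17:25919728-25919964 (- strand) for Rab40c. Capitals mark the CCAAT box and the GC box (GGGCGG), searched on both strands.
Rab6a: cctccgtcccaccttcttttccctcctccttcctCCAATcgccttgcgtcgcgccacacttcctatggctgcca
Rab32: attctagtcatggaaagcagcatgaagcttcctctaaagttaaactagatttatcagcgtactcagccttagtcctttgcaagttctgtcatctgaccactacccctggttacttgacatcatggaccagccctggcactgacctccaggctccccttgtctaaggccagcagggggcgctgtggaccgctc
Rab40c: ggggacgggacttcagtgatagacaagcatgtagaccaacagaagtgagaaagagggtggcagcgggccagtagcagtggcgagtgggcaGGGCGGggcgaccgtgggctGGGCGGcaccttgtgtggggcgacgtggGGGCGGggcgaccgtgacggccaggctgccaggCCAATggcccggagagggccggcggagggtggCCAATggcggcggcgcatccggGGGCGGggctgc
The Rab40c stretch holds 4 GC boxes and 2 CCAAT boxes, and the Rab6a stretch 1 CCAAT box. Neither motif occurs in these bases of Rab32. In the 250 bases before the start, the GC box occurred in 33 of the 44 Rab genes with a promoter in the RefSeq table (75.0%), against 35.4% of the promoters of 27025 genes. It occurred in 10 of 12 Rab genes that were higher with RAB6A siRNA and in 13 of 18 that were lower. The CCAAT box occurred in 47.7% of the Rab promoters and 37.5% of all promoters, the E-box CACGTG in 11.4% and 6.86%, and the TATA box TATAAA in 9.09% and 14.3%. A match describes the letters of a promoter and not a bound site. The set of all promoters was not limited to genes expressed in these cells, so the contrasts may not be particular to Rab genes.

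In NC libraries the Rab transcripts summed to 922 ± 14.3 FPKM (SD, n = 3), and endosomal genes led this sum. Rab5c, which acts in fusion of early endosomes, was highest, with 202, 205 and 214 FPKM. Rab7, the Rab of late endosomes and lysosomes, followed with 126, 134 and 136 FPKM. The gap between Rab5c and Rab7, and between Rab7 and the next gene, was larger than the spread of the libraries. Rab1b, which acts between ER and Golgi, had a mean of 58.7 ± 4.16 FPKM. Rab8b (53.0 ± 2.08), an exocytic Rab, and Rab31 (52.9 ± 1.85), which acts between the trans-Golgi network and endosomes, overlapped each other and Rab1b in range. Rab1a (47.1 ± 1.44), Rab2a (46.0 ± 2.46) and Rab8a (41.8 ± 2.12) came next. The ranges of Rab1a and Rab2a overlapped each other, as did those of Rab2a and Rab8a.

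By place of action, the early and recycling endosome Rabs held 41.8% of the Rab transcripts in NC, the Golgi and ER-Golgi Rabs 21.8%, the late endosome, lysosome and autophagy Rabs 20.1%, the exocytic Rabs 15.3%, and Rab23, Rab28 and Rab40c together 1.07%. The sum over all 55 genes was 874 ± 6.96 FPKM with SFRP2 siRNA and 762 ± 11.0 FPKM with RAB6A siRNA. The 3 groups did not overlap in this sum. With RAB6A siRNA the early and recycling endosome sum was 299 FPKM against 385 in NC, and the exocytic sum 109 against 141. The late endosome sum was 154 against 186 FPKM and the Golgi sum 187 against 201. The sum of Rab23, Rab28 and Rab40c was 12.6 FPKM against 9.87. Sums are led by their most abundant genes, and no test was run on them.

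**Figure D2:**
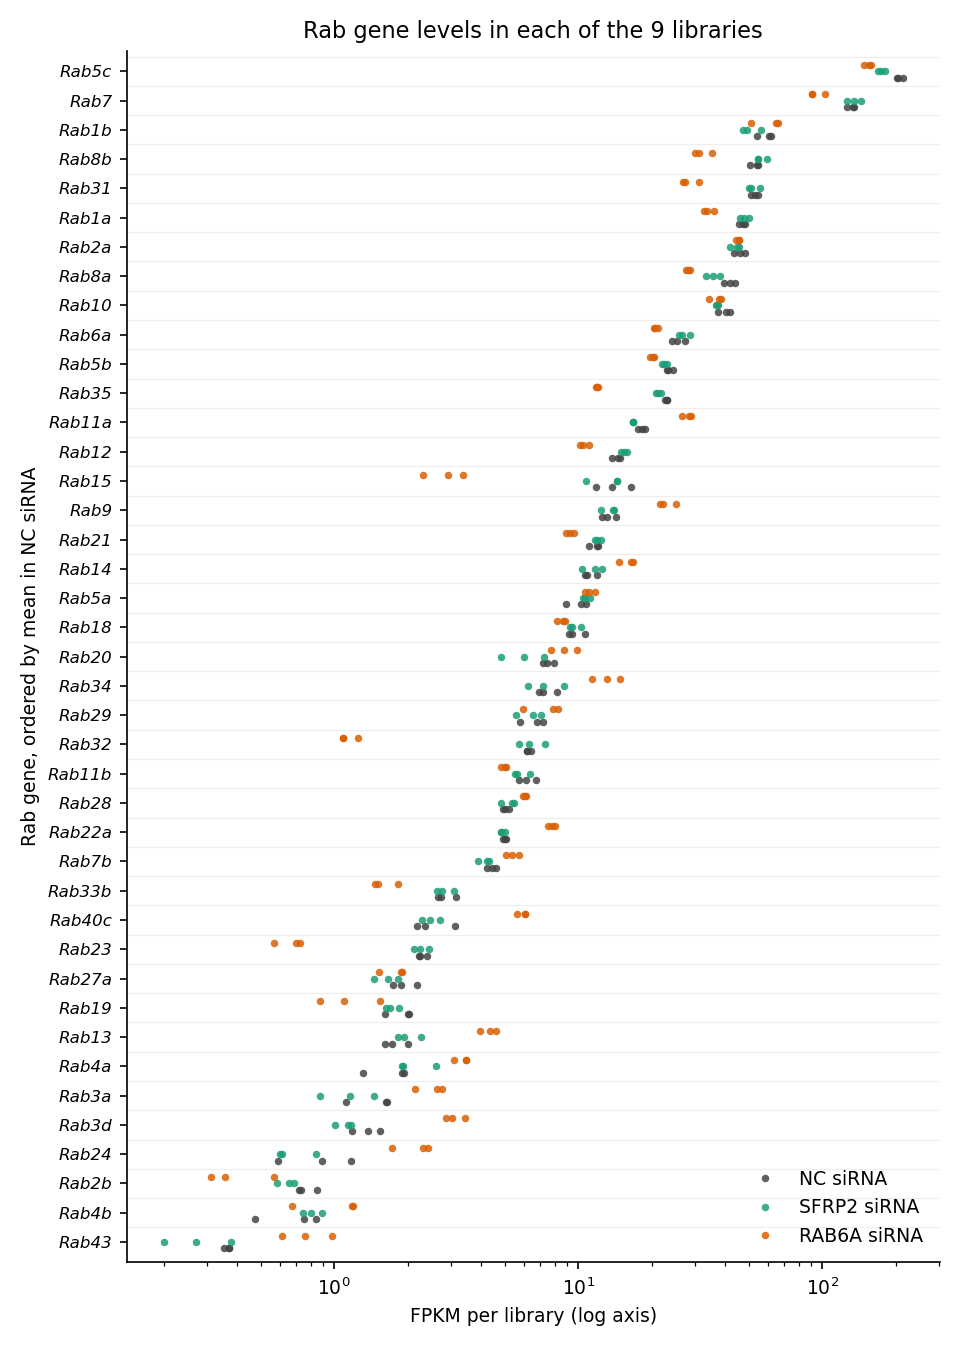
FPKM of each of the 41 Rab genes with a mean of at least 0.5 FPKM over the NC and RAB6A siRNA libraries, on a log axis, each point a library. Rab5c and Rab7 lie above all others, and the RAB6A siRNA points stand apart from the other 2 groups for many genes.

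Between RAB6A siRNA and NC, Rab genes differed in both directions, and about as often as genes in general. Of the 55 genes, 41 had a mean of at least 0.5 FPKM over the 6 libraries and were tested, and 32 of these had an adjusted p under 0.05. The share among all genes tested was 74.1% (9418 of 12712). Of the 32, 14 rose and 18 fell, with 37.6% and 36.5% of all genes tested in the same directions. Rab43 and Rab2b passed the filter only through the group in which they were higher, and without them 13 rose and 17 fell of 39. The median log2 fold change of the 41 Rab genes was -0.11, against 0.03 over all genes tested. In 33 of the 41 the groups did not overlap, against 77.4% of all genes tested. With the further requirement of an absolute log2 fold change over 1, 7 Rab genes remained (17.1% of 41), against 30.1% of all genes tested. These were Rab32, Rab15 and Rab23, which fell, and Rab13, Rab24, Rab40c and Rab3d, which rose. Only Rab32 and Rab15 passed that requirement when a pseudocount of 1 was used.

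The late endosome, lysosome and autophagy group held the largest fall. Rab32, which serves lysosome-related organelles and mitochondria, had 6.42, 6.15 and 6.19 FPKM in NC, 6.27, 5.74 and 7.32 with SFRP2 siRNA, and 1.25, 1.08 and 1.08 with RAB6A siRNA. The RAB6A siRNA libraries stood apart and the other 2 groups overlapped. The log2 fold change of Rab32 was -2.36 (SE 0.09, adjusted p = 1.4e-06, limma), a ratio of 0.182. Rab24, which is linked to autophagy, had 0.895, 0.589 and 1.17 FPKM in NC and 2.32, 2.43 and 1.73 with RAB6A siRNA. It rose by 1.23 (SE 0.24), with the widest spread of the 7. Of the exon bases of Rab24, 62.4% overlap Prelid1 on the opposite strand, whose mean was 52.7 FPKM in NC and 82.1 FPKM with RAB6A siRNA, so the reads of Rab24 are uncertain. Rab9, which returns mannose 6-phosphate receptors from late endosomes to the Golgi, rose from 13.3 ± 0.898 to 23.0 ± 1.92 FPKM. Rab7 fell from 132 ± 4.79 to 94.5 ± 6.92 FPKM (log2 fold change -0.48). Of the 50-base stretches of Rab7 transcripts, 12.7% also occur in other genes, most of them in the pseudogene Rab7-ps1, and their reads may be shared. Of the 8 tested genes of this group, 3 rose and 3 fell, close to the 37.6% and 36.5% of all genes tested. Rab20 and Rab29 did not pass the test.

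The early and recycling endosome group differed in both directions. Of 13 tested, 7 fell and 4 rose, against 36.5% and 37.6% of all genes tested, and Rab5a and Rab4b did not pass. Rab15, which acts in recycling of the transferrin receptor, had 16.4, 11.8 and 13.7 FPKM in NC, 14.4, 10.8 and 14.4 with SFRP2 siRNA, and 2.31, 3.38 and 2.92 with RAB6A siRNA. Its highest value with RAB6A siRNA was far below the lowest of the other groups, and the log2 fold change was -2.25 (SE 0.16, adjusted p = 1.3e-05, limma). Rab35, a Rab of fast recycling to the plasma membrane, had 22.8, 23.0 and 23.1 FPKM in NC and 11.8, 11.9 and 12.0 with RAB6A siRNA. The NC and RAB6A siRNA values of Rab35 were each nearly constant, and it fell by 0.94 (SE 0.05). Rab31 fell from 52.9 ± 1.85 to 28.6 ± 2.40 FPKM. Rab5c fell from 207 ± 5.96 to 154 ± 5.35 FPKM (log2 fold change -0.43), the largest loss in FPKM of any Rab gene. In the other direction, Rab4a, a Rab of rapid recycling, rose from 1.71 ± 0.342 to 3.33 ± 0.216 FPKM. Rab22a, Rab11a and Rab14 rose by 0.63, 0.62 and 0.52 on the log2 scale.

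In the exocytic group, 3 of 7 tested genes rose and 2 fell, against 37.6% and 36.5% of all genes tested. Rab13, which acts in transport to cell junctions and the plasma membrane, had 1.61, 1.72 and 2.00 FPKM in NC, 1.93, 2.26 and 1.83 with SFRP2 siRNA, and 3.96, 4.62 and 4.34 with RAB6A siRNA. The RAB6A siRNA libraries were all above the other 6, and the log2 fold change was 1.23 (SE 0.11, adjusted p = 3.6e-05, limma). Rab3d, a Rab of regulated secretion, had 1.53, 1.18 and 1.37 FPKM in NC and 2.86, 3.42 and 3.05 with RAB6A siRNA, a rise of 1.14 (SE 0.13). Its paralog Rab3a rose by 0.76 on the log2 scale. The abundant exocytic Rabs moved the other way. Rab8b had 53.8, 54.5 and 50.6 FPKM in NC and 31.1, 30.1 and 35.2 with RAB6A siRNA, and fell by 0.72 (SE 0.07). Rab8a fell from 41.8 ± 2.12 to 28.1 ± 0.589 FPKM. Rab10, which carries Toll-like receptor 4 to the surface of macrophages, had 39.9 ± 2.40 FPKM in NC and 36.9 ± 2.12 with RAB6A siRNA and did not pass (adjusted p = 0.179 by limma).

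Of the Golgi and ER-Golgi genes, 5 of 10 tested fell and 2 rose, against 36.5% and 37.6% of all genes tested. None had an absolute log2 fold change over 1, against 30.1% of all genes tested. Besides Rab6a, the genes called were Rab1a, Rab19, Rab33b and Rab2b, which fell, and Rab34 and Rab43, which rose. Rab2b and Rab43 passed the filter only through the group in which they were higher, so they add no support to these counts. Rab33b, which binds the autophagy factor Atg16l1, had 3.17, 2.74 and 2.67 FPKM in NC and 1.47, 1.51 and 1.83 with RAB6A siRNA. It fell by 0.80 (SE 0.12), and 18.7% of its exon bases overlap the model Gm38160 on the opposite strand. Rab1a fell from 47.1 ± 1.44 to 34.1 ± 1.72 FPKM, whereas its paralog Rab1b had 61.9, 54.0 and 60.2 FPKM in NC and 64.8, 66.0 and 51.1 with RAB6A siRNA, and the groups overlapped. Rab2a, with 46.0 ± 2.46 and 45.2 ± 0.646 FPKM, did not pass either. Rab34, which positions lysosomes from the Golgi, rose from 7.41 ± 0.663 to 13.1 ± 1.74 FPKM.

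Rab43 and Rab2b, both low, were the least certain of the Golgi genes. Rab43 had 0.370, 0.353 and 0.370 FPKM in NC and 0.612, 0.976 and 0.762 with RAB6A siRNA (log2 fold change 0.91, SE 0.25). It passed the filter only through the RAB6A siRNA group, where it was higher, so its test is no support for a difference. Of its exon bases, 75.4% overlap another protein-coding model, Gm45140, on the same strand. Rab2b had 0.849, 0.734 and 0.718 FPKM in NC and 0.357, 0.311 and 0.565 with RAB6A siRNA (log2 fold change -0.79, SE 0.26). It passed only through NC, so the same holds. Its call was also lost when any NC library was left out, with -0.72, -0.82 and -0.83 without NC replicates 1, 2 and 3, and when RAB6A siRNA replicate 1 or 2 was left out, with -0.73 and -0.65. With the GC content and gene length correction it was -0.57 and not called. Of the exon bases of Rab2b, 59.3% overlap Gm43766 on the opposite strand, a model with 0.0327 FPKM in NC. On that strand, 4.68% overlap Tox4, whose mean was 16.6 FPKM in NC and 11.7 FPKM with RAB6A siRNA. The reads of Rab2b are therefore uncertain.

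Of the remaining genes, Rab23, a negative regulator of Hedgehog signaling at the cilium, had 2.39, 2.23 and 2.24 FPKM in NC, 2.45, 2.12 and 2.25 with SFRP2 siRNA, and 0.565, 0.724 and 0.700 with RAB6A siRNA. Its log2 fold change was -1.65 (SE 0.14, adjusted p = 2.7e-05, limma). Rab40c, a Rab with a SOCS box that joins a ubiquitin ligase, had 2.18, 2.34 and 3.12 FPKM in NC, 2.73, 2.29 and 2.48 with SFRP2 siRNA, and 6.07, 6.07 and 5.62 with RAB6A siRNA. Rab40c rose by 1.20 (SE 0.13). In both genes the RAB6A siRNA libraries stood apart from the other 6. Rab28 rose from 5.04 ± 0.130 to 6.03 ± 0.0729 FPKM.

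**Figure D3:**
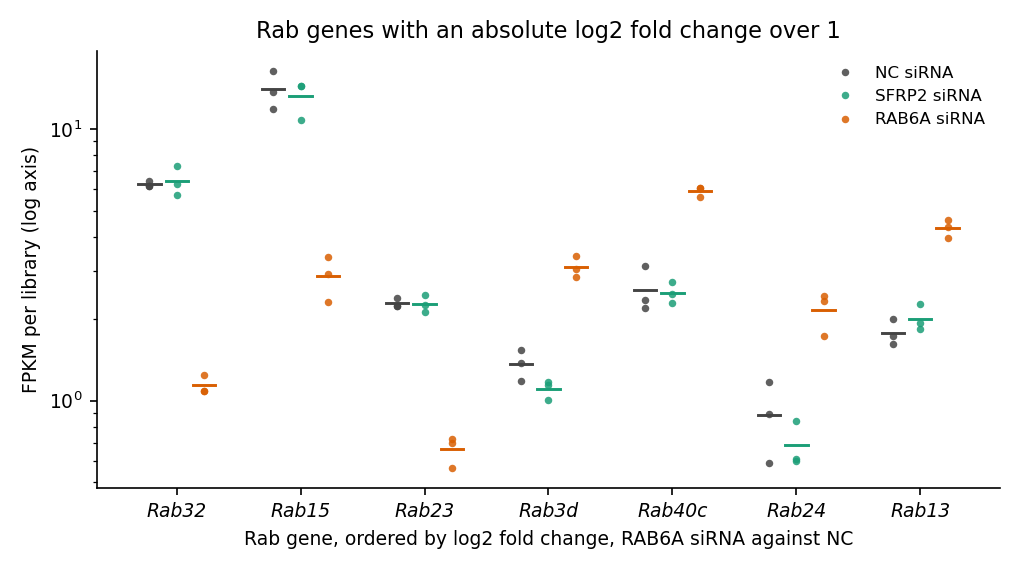
FPKM per library (log axis) of the 7 Rab genes called between RAB6A siRNA and NC whose log2 fold change was over 1 in size, with bars at the group means. Rab32, Rab15 and Rab23 lie lower and Rab3d, Rab40c, Rab24 and Rab13 higher with RAB6A siRNA, and the NC and SFRP2 siRNA points lie close together.

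The 14 genes under the filter were Rab33a, Rab39, Rab42, Rab6b, Rab37, Rab25, Rab39b, Rab30, Rab26, Rab44, Rab36, Rab3b, Rab27b and Rab38. Their means over the NC and RAB6A siRNA libraries ranged from 0.00448 to 0.325 FPKM, and none had more than 62 reads in a library. In 11 of the 14, all RAB6A siRNA libraries were above all NC libraries, as were 16.1% of the 14365 genes with a mean above 0 and under the filter. Those genes were not matched to the 14 in level, so the 2 shares cannot be compared directly. The highest of the 11, Rab33a, a Golgi Rab, had 0 to 10 reads in NC, 0 to 4 with SFRP2 siRNA and 17 to 27 with RAB6A siRNA. Rab37, which acts in secretion, had 2 to 12 reads in NC and 20 to 32 with RAB6A siRNA. Rab38, the close paralog of Rab32, had 2 reads in a single NC library and was listed at 0 in the other 8.

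Between SFRP2 siRNA and NC no Rab gene passed the adjusted threshold. With limma, 0 of 40 Rab genes tested had an adjusted p under 0.05, as had 0 of 12017 genes overall (0%), and with voom on the recovered reads 0 Rab genes were called among 41 genes called in all. The study, in contrast, reports differentially expressed genes with SFRP2 siRNA in this cell line, and its methods name DESeq2. The cause of this difference was not tested. At an unadjusted p under 0.05 with limma there were 6 Rab genes (15.0%), against 18.5% of all genes tested. All 6 were lower, namely Rab5c, Rab8a, Rab1b, Rab11a, Rab35 and Rab20. The share of lower genes among all genes at this threshold was not computed. Of the 12017 genes tested, 6312 were lower and 5705 higher, whatever their p. The groups did not overlap in 8 of the 40, against 24.7% of all genes tested, and in 7 of these (17.5% of 40) SFRP2 siRNA was lower, against 13.9% of all genes tested.

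Rab5c came closest to a difference. Its values were 180, 174 and 170 FPKM with SFRP2 siRNA against 202, 205 and 214 in NC, all lower, with a log2 difference of -0.25 (SE 0.05, adjusted p = 0.163, limma). Rab8a had 35.8, 33.4 and 38.0 FPKM against 39.7, 41.7 and 43.9 in NC, also without overlap, with a log2 difference of -0.22 (SE 0.06, adjusted p = 0.181). Rab1b had 56.0, 47.3 and 49.0 FPKM with SFRP2 siRNA, which overlapped NC (log2 difference -0.21). In the other direction the smallest unadjusted p-values belonged to Rab12, Rab4a and Rab8b, with log2 differences of 0.10, 0.31 and 0.09, of which only Rab12, a Rab that sends the transferrin receptor to degradation, had no overlap, with 15.9, 15.0 and 15.3 FPKM against 13.8, 14.6 and 14.9. The median log2 difference of the 40 Rab genes was -0.02, and that of all genes tested -0.01. The labels number the SFRP2 siRNA libraries siRNA-1 to siRNA-3 without saying whether these are different siRNAs. The supplement of the study lists different SFRP2 siRNAs under the same names, so the libraries may each have received another one.

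**Figure D4:**
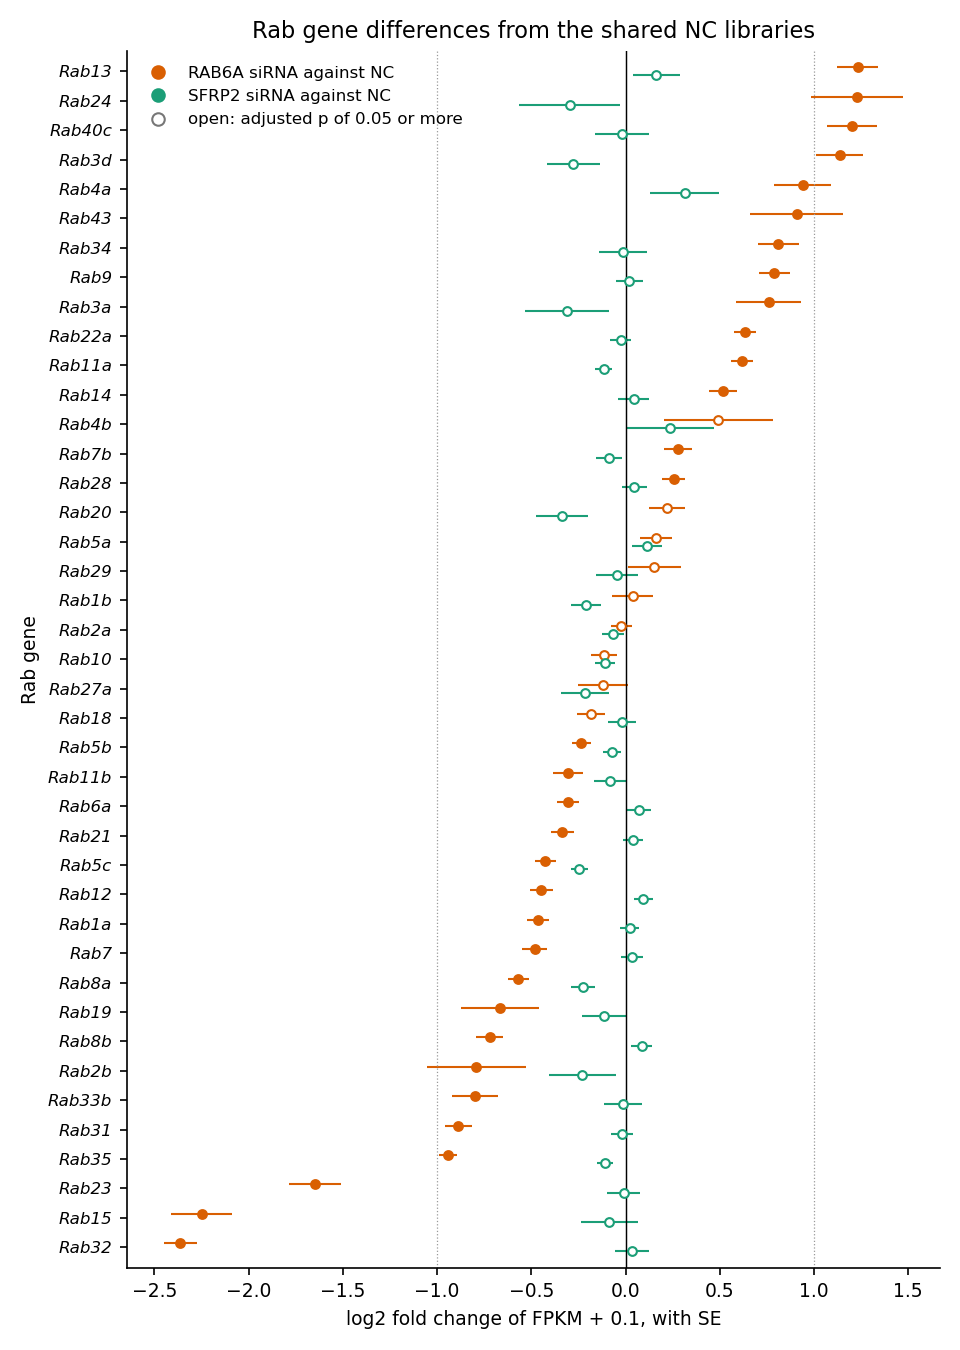
Log2 fold change of FPKM + 0.1 with its SE for each tested Rab gene, RAB6A siRNA against NC (orange) and SFRP2 siRNA against NC (green); filled points have an adjusted p under 0.05. The RAB6A siRNA differences run from -2.36 to 1.23 and the SFRP2 siRNA differences from -0.34 to 0.31; both comparisons use the same 3 NC libraries.

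Rab genes also differed between the siRNA groups. Of 41 Rab genes tested between SFRP2 siRNA and RAB6A siRNA, 32 had an adjusted p under 0.05, against 73.4% of all genes tested. SFRP2 siRNA was higher in 17 and lower in 15, against 35.8% and 37.6% of all genes tested. With the GC content and gene length correction it was higher in 12 and lower in 16. The shares of all genes by direction were not computed for the corrected values. Without the correction, an absolute log2 fold change over 1 was reached by 9 of the 32, against 31.1% of all genes tested. Rab43, counted in the 32 and in the 9, had a mean of 0.784 FPKM with RAB6A siRNA and 0.283 with SFRP2 siRNA. It passed the filter only through the group in which it was higher, so its call is no support for a difference. Rab2b passed only through SFRP2 siRNA (0.639 against 0.411 FPKM) and was not called. Rab6a was higher with SFRP2 siRNA than with RAB6A siRNA by 0.38 (SE 0.06, adjusted p = 8.5e-04, limma). With the same correction this difference was 0.11 and no longer called (adjusted p = 0.108, limma). In 33 of 41 Rab genes the RAB6A siRNA libraries were all above (14) or all below (19) the other 6 libraries. The share over all genes tested was 70.7%. The 14 include Rab43 and the 19 include Rab2b. Both passed the filter only through a group in which they were higher, so they add no support here. The comparison of SFRP2 siRNA with RAB6A siRNA shares its RAB6A siRNA libraries with that against NC.

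The proportions of close paralogs were compared as well. For 10 pairs, chosen after the values were seen, the share of the first gene in the summed FPKM of the pair was computed in each library. Between RAB6A siRNA and NC the shares did not overlap in 8 of the 10 pairs, and between SFRP2 siRNA and NC in 4, of which 2 share Rab5c. Among single genes tested, 77.4% and 24.7% did not overlap in these comparisons, and the pairs, being chosen with values in view, support no difference from that. With 3 libraries against 3, an exact two-sided permutation test of the log2 ratio cannot give a p below 0.1, which all of these reached, or 0.167 after adjustment over the 20 relations. The largest difference in log2 ratio, 1.53, was in the pair of Rab22a and Rab31, both of the Rab5-related endosomal branch. Rab22a made up 8.22, 8.94 and 8.67% of this pair in NC, 7.98, 8.97 and 8.80% with SFRP2 siRNA, and 22.9, 19.4 and 22.1% with RAB6A siRNA. Rab11a, which marks the recycling endosome, made up 74.7% of the Rab11a and Rab11b sum in NC and 84.9% with RAB6A siRNA. Rab1a made up 44.6% of its pair with Rab1b in NC and 36.2% with RAB6A siRNA. Rab5a made up 4.61% of the pair with Rab5c in NC, 5.81% with SFRP2 siRNA and 6.75% with RAB6A siRNA, with no overlap between NC and either siRNA group. In the pair of Rab8a and Rab8b, the share of Rab8a was 44.1% in NC and 38.9% with SFRP2 siRNA, without overlap, and 46.7% with RAB6A siRNA, where the groups overlapped.

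**Figure D5:**
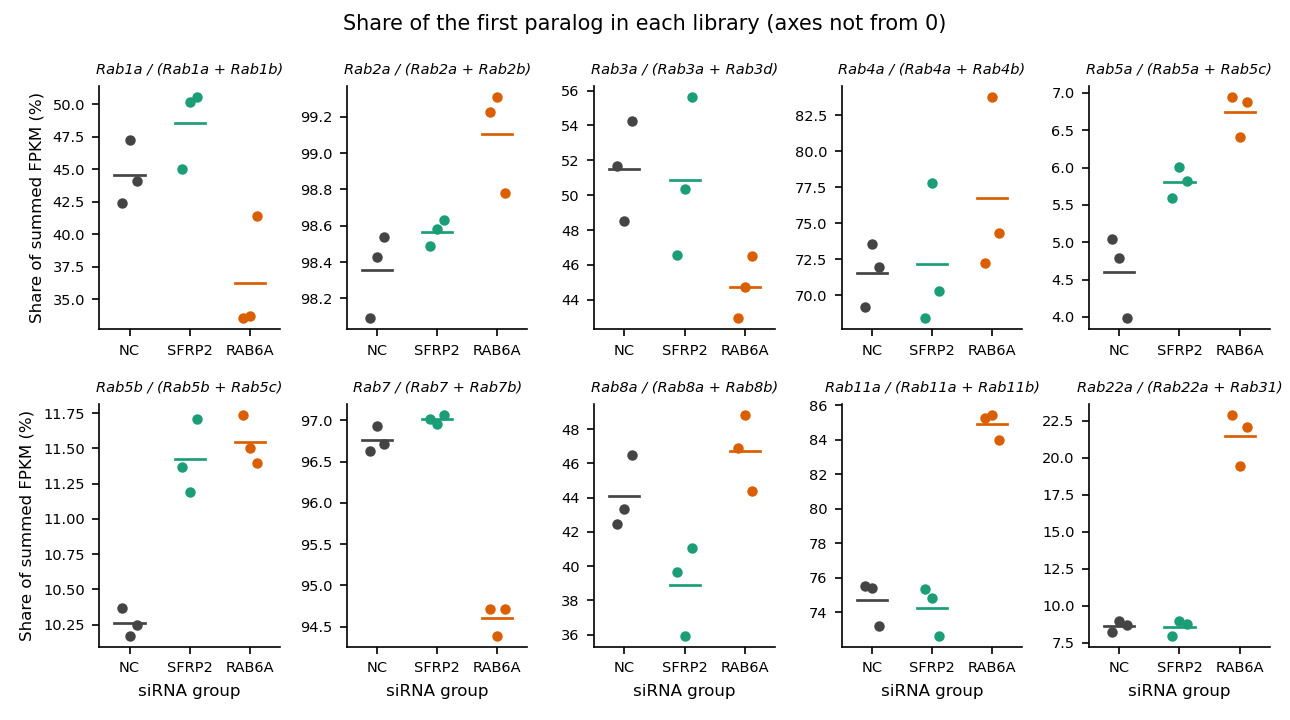
Share of the first gene in the summed FPKM of 10 paralog pairs (percent, axes not starting at 0), each point a library and each line a group mean. Rab22a makes up 8.61% of its pair with Rab31 in NC and 21.5% with RAB6A siRNA.

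Genes that load, switch and recycle Rab proteins also differed with RAB6A siRNA, about as often as genes in general. The share called was 85.7% of the 7 prenylation and recycling genes, 71.4% of the GEF genes and 67.7% of the GAP genes. Among all genes tested it was 74.1%. Of the 7 genes of prenylation and recycling, 4 rose and 2 fell, against 37.6% and 36.5% of all genes tested. Their median log2 fold change was 0.38, against 0.03 over all genes tested. Rabac1, a receptor that takes up prenylated Rabs at membranes, had 7.94, 8.97 and 9.19 FPKM in NC and 30.3, 32.6 and 22.9 with RAB6A siRNA (log2 fold change 1.69, SE 0.13, adjusted p = 2.1e-05, limma). In contrast, the escort protein genes Chml and Chm fell by 0.56 and 0.26 on the log2 scale, Chm with overlapping groups.

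Of 35 GEF genes tested, 15 rose and 10 fell, against 37.6% and 36.5% of all genes tested. Dennd3, a GEF for Rab12, rose from 0.724 ± 0.0413 to 4.28 ± 0.526 FPKM (log2 fold change 2.40, SE 0.12), and Dennd5a, which binds Rab6, from 7.77 ± 0.356 to 16.4 ± 0.296 FPKM. Dennd2d and Rabif fell by 1.48 and 1.06. Of 31 GAP genes tested, 12 rose and 9 fell, against the same 37.6% and 36.5%. Rabgap1l had 0.10, 0.152 and 0.122 FPKM in NC, 0.145, 0.140 and 0.119 with SFRP2 siRNA, and 2.78, 2.46 and 2.30 with RAB6A siRNA. It passed the filter only through the RAB6A siRNA group, so its log2 fold change of 3.54 (SE 0.20) is a description, and without it 11 of 30 GAP genes rose and 9 fell. Tbc1d2, a GAP for Rab7, rose by 2.03 (SE 0.12). Tbc1d25 and Tbc1d5, which act in autophagy and at the retromer, fell by 1.18 and 1.04. With SFRP2 siRNA, 0 of the 7, 35 and 30 genes tested of the 3 lists passed the adjusted threshold with limma, and 2, 1 and 4 had an unadjusted p under 0.05. The shares over all genes tested were 0% and 18.5%.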

How the data were processed

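The authors deposited FPKM per Ensembl gene and library. The submitters' processing notes name HISAT2, featureCounts and Subread. Versions, genome build and annotation are not given in the sources used here. Identifiers were named from GENCODE M21 (27533 of 28137). Its exon lengths turned FPKM into whole reads within 0.03 for 98.4% of named genes (54 of 55 Rab genes, not Rab3a). Of values from 1 to 20 reads, 71.4% were even, so that mates of a pair may be counted separately.

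Log2(FPKM + 0.1) was tested in R 4.3.3 using lmFit and trended eBayes of limma 3.58.1, on the 6 libraries of a comparison, for genes with a mean of at least 0.5 FPKM, with Benjamini-Hochberg adjustment over all genes tested. The pseudocount understates the changes of low genes. The study's methods name DESeq2, but the values are not counts. Its thresholds were kept, 0.05 for the adjusted p and 1 for the size of the log2 fold change. The fit was tested on simulated data. Means are given with SD.

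Named were Rab6a, Rab6b, Sfrp2, the 8 highest Rab genes in NC, the 8 highest and 8 lowest called fold changes without overlap, the 3 smallest unadjusted p-values per direction where none was called, and 2 regulators per direction and list, of which 1 is not reported here. Others were named to complete a group after their values were seen. Members and lists, written from general knowledge, were chosen with earlier results of these data known. Alternatives were other pseudocounts, filters and scalings, eBayes without a trend, a replicate block, all 9 libraries in a single fit, voom on recovered reads, a GC content and gene length correction, and each library left out.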

Additional observations from a re-analysis of the deposited data

How the results depend on the processing

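The number of Rab genes called between RAB6A siRNA and NC was 27 to 37 over 18 alternatives, against 32, and 30 to 34 when a library was left out. It was 0 between SFRP2 siRNA and NC in all 18, and 27 to 36 between SFRP2 siRNA and RAB6A siRNA. With a pseudocount of 1, the genes called with an absolute log2 fold change over 1 numbered 2 instead of 7 in RAB6A siRNA against NC and 2 instead of 9 in SFRP2 siRNA against RAB6A siRNA, since a larger pseudocount shrinks the fold changes of low genes. With the GC content and gene length correction, the log2 difference of Rab6a was -0.0902 against NC and 0.11 for SFRP2 siRNA against RAB6A siRNA. The log2 differences were the same when a replicate block was added. The adjusted p by limma was 0.229 and 0.108 without the block, and at most 0.285 and 0.130 over all alternatives. Neither difference passed the test with the correction, with or without the block. The cause was not tested.

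Some small differences, none of them called, changed sign. In RAB6A siRNA against NC, Rab1b was -0.18 with the GC content and gene length correction, with or without the replicate block, and -0.0269 to 0.158 when a library was left out. Rab2a was 0.14 with quantile normalization, 0.0011 with the correction and -0.0606 to 0.0166 when a library was left out. In SFRP2 siRNA against NC, Rab1a was -0.0626 and Rab8b -0.0321 with the correction, and Rab31 was 0.0315 with quantile normalization and 0.0097 with the correction. Leaving out a library gave -0.011 to 0.051 for Rab1a, -0.0661 to 0.013 for Rab31 and -0.0109 to 0.0781 for Rab7. Unlike these, Rab43 was called in the main fit of RAB6A siRNA against NC. It kept its sign but was 0.30 and not called with quantile normalization.

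The deviations of same-numbered libraries of 2 groups had correlations of -0.0847 to 0.0477 over genes. Those of differently numbered libraries had -0.116 to 0.0815. With 3 libraries per group, these values cannot tell whether same-numbered libraries shared a culture or batch. With the replicate block 31 Rab genes were called in RAB6A siRNA against NC and 28 in SFRP2 siRNA against RAB6A siRNA. Depth limits the 14 Rab genes with at most 62 reads per library.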
